A study of Mus musculus with 15 samples.

Results

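Untreated MPI cells, macrophages that divide in culture and are named after the Max Planck Institute, were described here from the 3 libraries that the labels call untreated, of 15 libraries in the whole series. The cells came from fetal liver of female C57BL6/J mice and grew in RPMI medium with 10% fetal bovine serum and 30 ng/ml of recombinant mouse GM-CSF, and this medium was common to every group of the study. The other 12 libraries came from cells exposed for 24 h to riebeckite or tremolite particles. These were riebeckite asbestos at 9 µg/cm², riebeckite cleavage fragments at 40, tremolite asbestos at 5 and tremolite cleavage fragments at 60. The untreated cells are listed at 24 h and 0 µg/cm². The exposed libraries enter below only where the spread of a gene is set beside them. The labels do not say whether the 3 untreated libraries came from separate cultures or from 1 isolate of cells, so their spread may be technical. With 1 group and no comparison between groups, every value is a description without a test.

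GM-CSF, the granulocyte-macrophage colony-stimulating factor, signals through a receptor made of an alpha chain that binds the ligand and a common beta chain that carries the kinase JAK2, which activates the transcription factor STAT5. In the lung this signal drives fetal monocytes to become alveolar macrophages, with the nuclear receptor PPAR gamma as a main effector. Alveolar macrophages clear surfactant lipid, renew themselves locally, and carry Siglec-F, CD11c and MARCO on their surface. Most mature macrophages stop dividing, and a low level of the transcription factor c-Maf together with Myc and Klf4 is known to go with self-renewal.

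Levels are given as FPKM, fragments scaled to transcript length and to the mapped fragments of the library, so genes can be compared roughly with each other. The deposited gene values differ from the sums of their transcripts, which had a median ratio of 1.24 to the gene value (upper quartile 1.67). The SD of a ratio between genes covers the libraries only, not this difference. The gene table held 10653 protein-coding genes. Of these, 9665 were at 1 FPKM or more in all 3 untreated libraries, 4211 at 10 or more, 351 at 100 or more and 18 at 1000 or more. The median gene had a mean of 7.58 FPKM, and 8 genes were listed at 0 in all 3 libraries. Summed FPKM was 262169, 258927 and 257329 in the 3 libraries. How many reads each library held is not known from the tables. A gene stands in the table only if its mean reached 0.5003 FPKM in at least 1 group of the study, so a gene called "without a row" below was not analysed here, and nothing is said about its level.

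The most abundant messages included those of iron storage, lysosomes, mitochondria and translation, with the chemokine Ccl6 and the secreted lectin Chil3. The 30 genes with the highest means took 21.0% ± 0.281 (SD, n = 3) of the summed FPKM, and 435 genes, 4.08% of the table, made up 50% of it. Of these 30 genes, 11 lie on the mitochondrial genome. All 13 mitochondrial genes together took 8.65% ± 0.181 (SD, n = 3), and 79 genes of the cytosolic ribosome took 6.17% ± 0.181 (SD, n = 3). Selection of mRNA with oligo(dT), used per the labels, can change how much of the mitochondrial message is recovered.

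Fth1, the ferritin heavy chain that stores iron (ENSMUSG00000024661.6, chromosome 19, 9982703 to 9985092, GRCm38), was the highest gene, at 6379, 6026 and 5896 FPKM. Its partner Ftl1, the ferritin light chain, stood at 875, 796 and 803 FPKM, so the heavy chain was 7.40 ± 0.150 times the light chain (SD, n = 3). Ferritin genes have many processed copies in the genome, and reads shared with these can make the level uncertain.

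Lyz2, the lysozyme of macrophages (ENSMUSG00000069516.8, chromosome 10, 117277331 to 117282321), followed with 4259, 4127 and 3811 FPKM. Its neighbour Lyz1, the lysozyme of Paneth cells, is nearly identical in sequence and was listed at 7.63, 7.28 and 5.84 FPKM. Ccl6, a chemokine that myeloid cells make under GM-CSF (ENSMUSG00000018927.3, chromosome 11, 83587882 to 83593087), stood at 3791, 3461 and 3485 FPKM. Its relative Ccl9 was 12.9 ± 0.323 times lower (SD, n = 3), at 286, 274 and 273 FPKM. Both chemokines had their highest value in library 1.

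Psap, the precursor of the saposins that help to break down sphingolipids in lysosomes, was at 3244, 3037 and 2853 FPKM. Chil3, a secreted chitinase-like lectin also called Ym1 (ENSMUSG00000040809.10, chromosome 3, 106147554 to 106167564), was at 2705, 2707 and 2476 FPKM. Ctsd, the lysosomal protease cathepsin D, was at 1798, 1687 and 1576 FPKM. In Psap and Ctsd the library order was the same, with library 1 highest and library 3 lowest. Of the 19 nuclear genes among the 30, 16 were highest in library 1, and of the 11 mitochondrial genes 7 were highest in library 3. The mitochondrial share was 8.54, 8.55 and 8.86% in the 3 libraries, and its part in the order of the nuclear genes was not tested.

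The remaining nuclear genes of the 30 included B2m, the light chain of MHC class I, the translation factor Eef1a1, the signalling adaptor Tyrobp and the vacuolar ATPase subunit Atp6v0d2. Cathepsins were frequent in this group, since Ctsd was joined by Ctss (mean 902 FPKM), Ctsz (807) and Ctsk (806). Ranges of neighbouring genes in the order of levels overlapped in 18 of 29 pairs, so most places in the order cannot be told apart with 3 libraries.

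**Figure D1:**
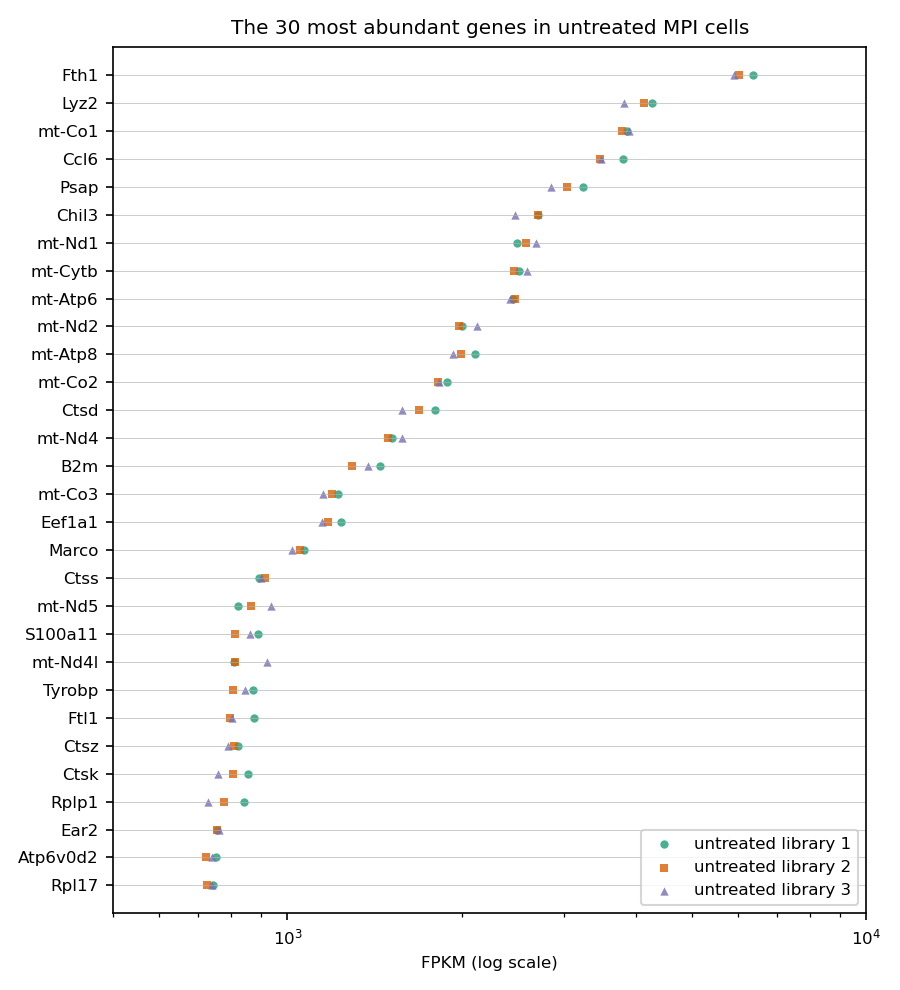
The 30 genes with the highest mean level in untreated MPI cells, from top to bottom, with FPKM on a log axis and 1 point for each of the 3 libraries. Fth1 leads at 5896 to 6379 FPKM, and the lowest of the 30, Rpl17, lies at 725 to 743.

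The DNA just before the start of 6 of these genes is shown so that the most abundant messages can be seen beside the sequence next to their start sites. Lyz2, Ccl6, Chil3 and Marco were chosen for their high level, Csf2ra as the GM-CSF receptor, and Lamp1 as the highest lysosome gene with a CACGTG in its window and a RefSeq start equal to the deposited gene start. The windows come from RefSeq (GRCm38.p6), read 5′ to 3′ on the strand of the gene and end at the deposited gene start. Capitals mark matches, on either strand, to the ETS core AGGAAG, the AP-1 site TGANTCA, the E-box core CACGTG, the TATA box TATAAA or the longer PU.1 site GAGGAAGT, which contains the ETS core.
Lyz2 (chr10:117282322-117282522, minus strand): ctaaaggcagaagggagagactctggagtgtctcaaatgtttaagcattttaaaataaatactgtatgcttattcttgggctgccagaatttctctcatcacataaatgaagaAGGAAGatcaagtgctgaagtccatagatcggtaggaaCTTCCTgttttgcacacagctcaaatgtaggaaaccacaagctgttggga
Ccl6 (chr11:83593088-83593337, minus strand): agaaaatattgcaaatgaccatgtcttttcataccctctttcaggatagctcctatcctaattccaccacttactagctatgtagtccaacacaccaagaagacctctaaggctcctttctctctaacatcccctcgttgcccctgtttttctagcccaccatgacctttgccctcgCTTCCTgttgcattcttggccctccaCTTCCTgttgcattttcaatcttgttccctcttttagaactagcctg
Chil3 (chr3:106167565-106167814, minus strand): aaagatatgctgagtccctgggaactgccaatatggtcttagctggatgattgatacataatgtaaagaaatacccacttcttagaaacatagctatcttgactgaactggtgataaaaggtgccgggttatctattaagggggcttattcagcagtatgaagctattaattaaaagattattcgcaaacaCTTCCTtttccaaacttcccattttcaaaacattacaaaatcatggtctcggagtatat
Marco (chr1:120505025-120505274, minus strand): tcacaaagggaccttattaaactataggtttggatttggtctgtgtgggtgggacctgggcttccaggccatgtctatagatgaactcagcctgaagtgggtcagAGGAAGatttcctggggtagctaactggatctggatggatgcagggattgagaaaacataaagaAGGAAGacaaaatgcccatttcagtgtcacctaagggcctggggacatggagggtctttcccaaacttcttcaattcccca
Csf2ra (chr19:61228419-61228668, minus strand): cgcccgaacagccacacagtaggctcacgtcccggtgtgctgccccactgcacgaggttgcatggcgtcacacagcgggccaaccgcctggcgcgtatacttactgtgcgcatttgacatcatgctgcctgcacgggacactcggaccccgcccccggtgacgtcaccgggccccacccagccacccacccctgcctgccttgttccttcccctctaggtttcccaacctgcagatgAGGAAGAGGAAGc
Lamp1 (chr8:13158911-13159160, plus strand): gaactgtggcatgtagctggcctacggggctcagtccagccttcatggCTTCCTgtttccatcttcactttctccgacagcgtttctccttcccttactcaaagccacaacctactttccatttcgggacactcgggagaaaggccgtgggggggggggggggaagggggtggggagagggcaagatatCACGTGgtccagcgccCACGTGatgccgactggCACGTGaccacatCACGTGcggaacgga

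Searches for these motifs covered windows of 300 bases, 250 before and 50 after the start, for 1 promoter of each of 27025 genes. PU.1, the transcription factor that sets macrophage fate, binds an ETS-type site, and its longer form GAGGAAGT was searched first. It was found in 3.29% of all promoters, 3.47% of those of genes with a row and 6.42% of those at a mean of 100 FPKM or more. By list it was in 0 of 20 macrophage identity genes with an entry, 1 of 29 alveolar macrophage and 4 of 27 lysosome genes. It was also in 0 of 32 DNA replication and 1 of 33 mitosis genes, and in none of the 6 windows shown. The shorter AGGAAG was added after windows had been read and the longer form had given no match in them, so its presence in the windows of Lyz2, Ccl6, Chil3, Marco and Csf2ra is a result of that choice. The Lamp1 window, chosen for its CACGTG, also holds 1 copy. AGGAAG is common, at 35.1% of all promoters, 33.2% of those of genes with a row and 41.9% of those at a mean of 100 FPKM or more. It was in 12 of 20 macrophage identity genes and 14 of 29 alveolar macrophage genes. CACGTG, the E-box core bound among others by TFEB, a regulator of lysosome genes, was in 7.16% of all promoters, 10.9% of those of genes with a row and 9 of 27 lysosome genes. The Lamp1 window held 4 copies, the first base of each 61, 45, 28 and 15 bases before the start. TGANTCA was in 7.84% of all promoters, 4.49% of those of genes with a row, 7.92% of those at 100 FPKM or more and 2 of 20 macrophage identity genes. TATAAA was in 14.1% of all promoters, 6.44% of those of genes with a row, 15.5% of those at 100 FPKM or more and 5 of 20 macrophage identity genes. A match describes letters and is no evidence of binding, and a missing match says only that the letters are not in this window.

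Macrophage identity genes were high as a group. Of 34 such genes 29 had a row, 26 of them at a mean of 10 FPKM or more and 10 at 100 or more, with a median of 70.3 FPKM over members with a row against 7.58 over all genes. Of all 10653 genes, 4211 were at 10 FPKM or more and 351 at 100 or more in all 3 libraries. Spi1, which encodes PU.1 (chromosome 2, 91082390 to 91115756), stood at 99.2, 96.5 and 92.7 FPKM. Csf1r, the receptor for the macrophage growth factor CSF1, stood at 71.1, 72.5 and 74.4 FPKM. Adgre1, which encodes the surface marker F4/80, stood at 70.8, 71.5 and 68.6 FPKM. The 3 libraries lay close together for each of these defining genes, with coefficients of variation (SD over mean) of 3.37, 2.23 and 2.14%.

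Cd68, a lysosomal glycoprotein of macrophages, was at 713, 667 and 681 FPKM, and Mpeg1, a pore-forming protein of phagosomes, at 601, 594 and 581 FPKM. The apoptotic cell receptor Mertk was at 96.3, 102 and 99.7 FPKM. The high-affinity Fc receptor Fcgr1 was lower, with a mean of 25.7 FPKM, and so were Cd14, the co-receptor for bacterial lipopolysaccharide (11.4), and Irf8, a transcription factor of the monocyte lineage (9.46). Maf, the gene of c-Maf, was below 1 FPKM in every library, with a mean of 0.741 FPKM. The fractalkine receptor Cx3cr1, the calcium-binding protein gene Aif1 and the complement genes C1qa, C1qb and C1qc had no row. The label of a macrophage therefore rests here on Spi1, Csf1r, Adgre1, Cd68, Lyz2 and Mertk among its defining markers, all with a mean above 70 FPKM, on lower levels of Fcgr1 and Cd14, and on Itgam, which is taken up below.

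Genes known from alveolar macrophages were also high. Of 39 such genes 38 had a row, 31 of them at a mean of 10 FPKM or more and 19 at 100 or more. Of all 10653 genes, 4211 were at 10 FPKM or more and 351 at 100 or more in all 3 libraries. The median of the alveolar list was 99.5 FPKM, or 159 with transcripts summed per gene. This list and that of macrophage identity were chosen with earlier results of these data known, which can raise their counts and medians. Some members are not particular to alveolar macrophages, since Ctsk (806) and Atp6v0d2 (738) stand in the osteoclast list too. Marco, a scavenger receptor that binds inhaled particles and bacteria (ENSMUSG00000026390.7, chromosome 1, 120474538 to 120505024), was at 1068, 1052 and 1019 FPKM. It stands in the Kupffer cell list as well, so its level does not tell these cell types apart. Ear2, a ribonuclease of the eosinophil family, was at 756, 756 and 763 FPKM. Its near-identical relatives Ear10, Ear6 and Ear1 were listed at means of 9.27, 9.13 and 5.45, and reads shared within this family can be split uncertainly.

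Plet1, a surface protein of alveolar macrophages, was at 507, 486 and 497 FPKM, and Car4, a carbonic anhydrase, at 335, 330 and 327 FPKM. Pparg (chromosome 6, 115360951 to 115490399) was at 71.0, 73.3 and 75.2 FPKM, and its target Fabp4, a fatty acid carrier, at 97.4, 93.8 and 95.8 FPKM. Bhlhe40 and Bhlhe41, a pair of repressors that sustain alveolar macrophage renewal, had means of 91.5 and 47.4 FPKM. Itgax, which encodes CD11c, was at 37.8, 36.9 and 37.0 FPKM.

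Siglecf, the surface marker most often used to sort alveolar macrophages (chromosome 7, 43351341 to 43359531), was at 9.50, 11.1 and 11.5 FPKM, which ranks it 4215 of 10653 genes. Its gene value exceeded its transcripts, of which the highest, Siglecf-203, had a mean of 2.27 FPKM. Krt79, a keratin expressed by alveolar macrophages, stood at 0.233, 0.261 and 0.272 FPKM, and Cidec, a lipid droplet protein, at a mean of 1.06 FPKM. The carbonic anhydrase Car2 had no row. So the alveolar list was not uniform, with Marco, Chil3 and Ear2 above 700 FPKM and Krt79 below 1 FPKM in the same libraries.

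**Figure D2:**
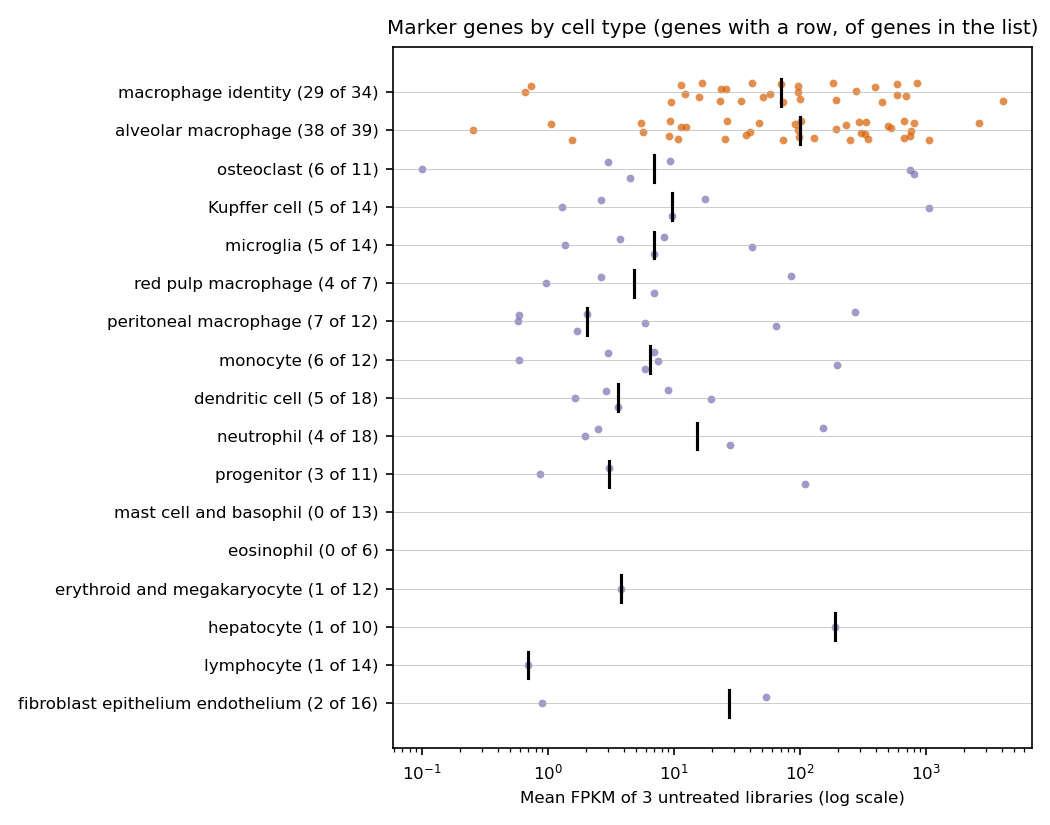
Mean FPKM of 3 untreated libraries (log axis) for each marker gene with a row, by cell type. The black bar is the median of these genes, the counts in brackets are genes with a row of genes in the list, and some genes stand in more than 1 list. Macrophage identity (median 70.3 FPKM) has 29 of 34 members with a row and alveolar macrophage (99.5) 38 of 39. Mast cell and eosinophil genes have none. The lists were chosen with earlier results of these data known, and genes without a row were not analysed. A median over few genes says little, and that of hepatocyte genes rests on 1.

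Markers of other cell types were mostly without a row. Of the lists for macrophages of other organs, microglia had 5 of 14 members with a row, Kupffer cells 5 of 14, red pulp macrophages 4 of 7 and peritoneal macrophages 7 of 12. Among them the microglial receptor P2ry12 had a mean of 3.70 FPKM, the Kupffer cell receptor Clec1b 9.57 FPKM and Spic, the regulator of red pulp macrophages, 0.973 FPKM. The highest member of the Kupffer cell list was Marco, with a mean of 1046 FPKM, which is also in the alveolar list. Tmem119, Sall1, Clec4f, Timd4 and Gata6, which define microglia, Kupffer cells and peritoneal macrophages, had no row. Osteoclast genes split, since Ctsk and Atp6v0d2 were at means of 806 and 738 FPKM while Acp5, the tartrate-resistant phosphatase, was at 2.99 and Calcr, Dcstamp and Mmp9 had no row.

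Monocyte genes with a row were 6 of 12, with the calcium-binding protein S100a4 at a mean of 196 FPKM and the chemokine receptor Ccr2 at 0.590. Dendritic cell genes with a row were 5 of 18, with the receptor Clec9a at 9.00 FPKM. In the neutrophil list 4 of 18 had a row, with the formyl peptide receptor Fpr1 at 151 FPKM and S100a8, a chain of calprotectin, at 27.8, while Elane, Mpo and Ly6g had no row. The mast cell and basophil list had 0 of 13 with a row and the eosinophil list 0 of 6. Fetal liver also holds hepatocytes and red cell precursors. Of 10 hepatocyte genes 1 had a row, the iron carrier Trf at 185, 195 and 191 FPKM, and Alb and Afp had none. Of 12 erythroid and megakaryocyte genes only the erythropoietin receptor Epor had a row, at 4.02, 4.25 and 3.14 FPKM. The adhesion protein gene Cdh1, listed for epithelium, was at 53.7, 52.4 and 53.8 FPKM, and Epcam, Krt8 and Krt18 had no row. In these bulk libraries few cells with much RNA of a gene and many cells with little cannot be told apart.

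The GM-CSF receptor was among the abundant receptors. Csf2ra, the alpha chain (ENSMUSG00000059326.6, chromosome 19, 61224402 to 61228418), stood at 177, 171 and 171 FPKM. Csf2rb, the common beta chain (ENSMUSG00000071713.4, chromosome 15, 78325990 to 78351000), stood at 131, 128 and 131 FPKM. The alpha chain was above the beta chain in each library, by 1.33 ± 0.0268 times (SD, n = 3), and their ranges did not overlap. Csf2rb2, a mouse beta chain for interleukin 3 that closely resembles Csf2rb, stood at 46.4, 46.9 and 47.2 FPKM, and Csf2rb was 2.78 ± 0.0398 times higher (SD, n = 3). Reads shared between the 2 beta chains can be split uncertainly. Il3ra, the alpha chain for interleukin 3, had no row.

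Downstream genes of the receptor were lower and spanned a wide range. Of 20 genes of the receptor and its JAK-STAT5 path, 18 had a row, with a median of 16.9 FPKM, or 27.1 with transcripts summed per gene. The kinase Jak2 was at 12.6, 14.3 and 14.7 FPKM. Stat5b was at 14.8, 15.9 and 14.8 FPKM and Stat5a at 4.72, 5.07 and 5.08, a ratio of 3.06 ± 0.124 (SD, n = 3). Among the known targets of STAT5, the kinase Pim1 was at 75.9, 78.9 and 84.2 FPKM. The feedback inhibitor Cish was at 10.9, 10.8 and 10.8 FPKM. Socs3 and Socs2, inhibitors of the same family, had means of 9.71 and 2.36 FPKM, and Socs1 had no row. Bcl2l1, the survival gene of the BCL-2 family, was at 12.3 FPKM in libraries 1 and 2 and at 5.90 in library 3. The other members with a row were the phosphatases Ptpn6 (122 FPKM) and Ptpn11 (13.8), the kinases Lyn (77.5) and Jak1 (47.9), the adaptors Grb2 (72.9) and Shc1 (17.5), and the ubiquitin ligase Cbl (16.2).

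Of 6 receptors for other colony factors and related ligands, Csf1r and Epor had a row, and Csf3r, Kit and Flt3 were among those that had none. Csf2ra was 2.39 ± 0.0972 times Csf1r (SD, n = 3). The ligands Csf1, Csf2 and Il34 had no row, so a source of these factors in the cells could not be examined.

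Among receptors of growth factors 17 of 28 had a row. Axl, a receptor for the bridging protein Gas6, was the highest at 184, 183 and 181 FPKM, and was 1.84 ± 0.0602 times Mertk (SD, n = 3). Tgfbr2 and Tgfbr1, which together bind TGF-beta, stood at means of 97.6 and 20.3 FPKM. Flt1, the VEGF receptor 1, stood at 25.2, and Insr, the insulin receptor, at 8.46. Met, the receptor of hepatocyte growth factor, was near 1 FPKM, at 0.814, 1.00 and 1.66. Igf1r, Egfr, Pdgfra and Kdr had no row.

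Of 26 cytokine receptors 20 had a row. The TNF receptor Tnfrsf1b was at 66.0, 65.3 and 65.1 FPKM and Tnfrsf1a at 41.8, 39.2 and 36.4. Il2rg, the common gamma chain, was at 65.9, 62.9 and 65.9 FPKM. The interferon gamma receptor chains Ifngr1 and Ifngr2 were at 31.4 and 29.7 FPKM on average and their ranges overlapped. The interleukin 4 receptor Il4ra was at 14.1 and the interleukin 6 receptor Il6ra at 5.67. Of growth factors themselves 12 of 29 had a row, led by Grn, progranulin, at a mean of 145 FPKM, Igf1 at 67.2 and Tgfb1 at 49.7.

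**Figure D3:**
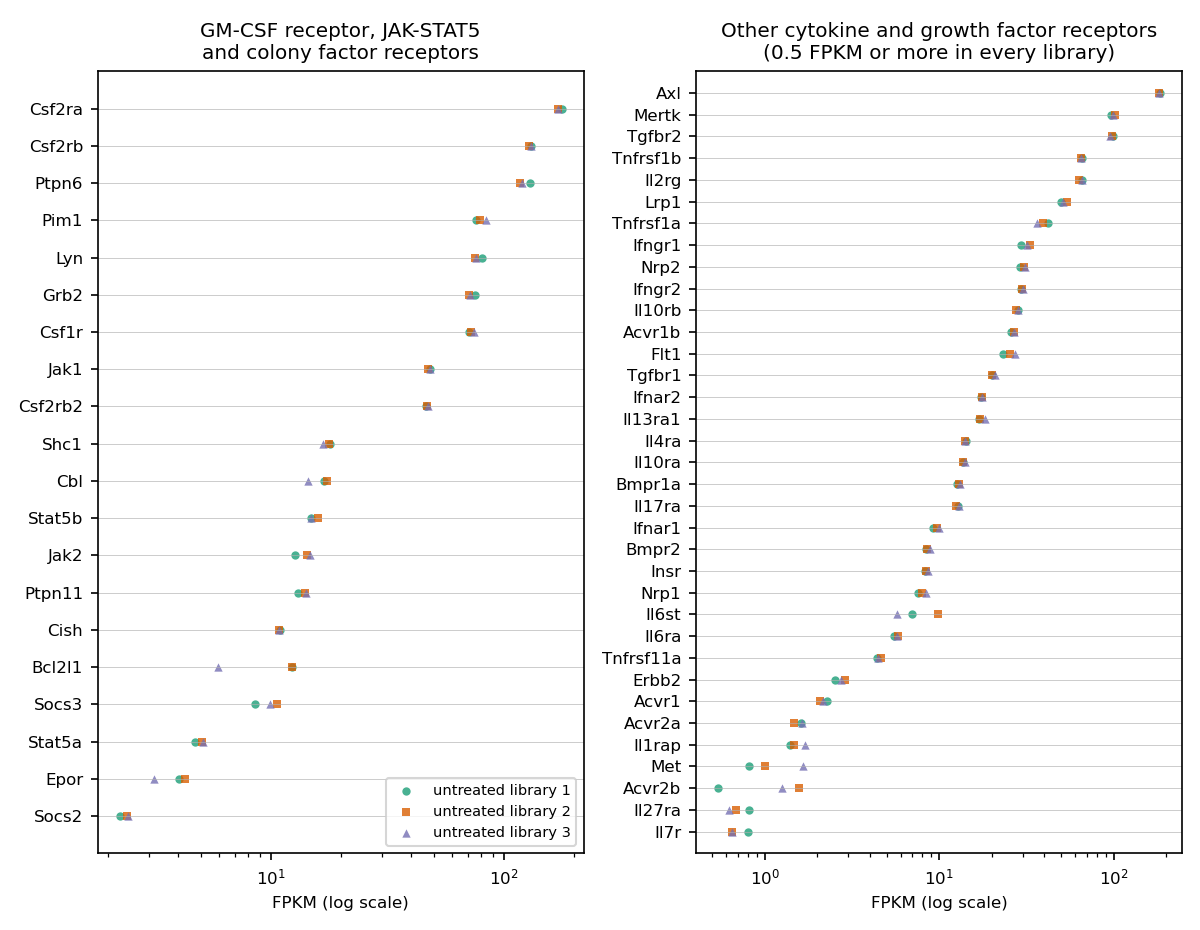
FPKM on a log axis for each receptor or signalling gene with a row, 1 point for each of the 3 libraries. Csf2ra and Csf2rb lead the left panel at 171 to 177 and 128 to 131 FPKM, and Axl leads the right panel at 181 to 184.

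Genes of cell division were measured throughout. All 40 genes of DNA replication and all 40 of mitosis had a row and were at 1 FPKM or more in every library. So were 9665 of all 10653 genes with a row, so this count says little about the lists. The medians were 9.29 and 13.6 FPKM, against 7.58 over all genes, or 15.5 and 19.1 with transcripts summed per gene. Pcna, the sliding clamp of DNA polymerase, was at 81.4, 78.6 and 79.0 FPKM, and Mcm4, a subunit of the replicative helicase, had a mean of 36.3 FPKM. Mki67, the proliferation marker Ki-67, was at 74.9, 83.5 and 88.4 FPKM, and Top2a, the topoisomerase that untangles chromosomes, at 38.4, 40.1 and 41.9. The mitotic cyclin gene Ccnb2 was at 33.5, 31.9 and 34.5 FPKM. The lowest mitosis gene was the centriole kinase Plk4, with a mean of 2.07 FPKM, and the lowest replication gene was the origin recognition gene Orc1, with 2.82.

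Library 1 was the lowest for 29 of the 40 replication genes and 26 of the 40 mitosis genes, against 40.3% of all genes with a mean of 1 FPKM or more. Summed over the mitosis genes, the level was 625, 653 and 667 FPKM in the 3 libraries. In contrast, library 1 was the highest for 26 of 35 lysosome genes, against 31.1% of all genes. Members of a list share their cells and libraries, and no test was made of either count.

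Among regulators of self-renewal 22 of 25 had a row. The D-type cyclin Ccnd2 (ENSMUSG00000000184.12, chromosome 6, 127125162 to 127152193) was the highest, at a mean of 109 FPKM, and was 8.95 ± 0.415 times Ccnd1 (SD, n = 3). Ccnd3 stood at 6.09 FPKM in library 1 and at 1.57 and 1.66 in the others. Klf4 (chromosome 4, 55527143 to 55532466) was at 52.5, 59.5 and 58.6 FPKM and Myc (chromosome 15, 61985391 to 61990374) at 27.0, 29.6 and 29.9. Both lay far above Maf, at 0.838, 0.723 and 0.662 FPKM, and their ranges did not overlap with it. Klf2 was at 13.9, 13.9 and 14.1 FPKM, and Klf5 had a mean of 0.807.

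Inhibitors of the cell cycle were present beside these genes. Cdkn1a, the p21 inhibitor, was at 74.4, 67.7 and 71.2 FPKM. Cdkn2a, the locus of the p16 and p19Arf inhibitors (chromosome 4, 89274471 to 89294653), was at 14.3, 12.3 and 10.6 FPKM. Cdkn1b and Cdkn2c had a mean of 11.4 FPKM each, and Cdkn2b had 0.613. The tumour suppressors Trp53 and Rb1 stood at 20.3 and 21.0, and the replication activator E2f1 at 14.3, 15.4 and 15.2. The other members were Mxi1 (22.6 FPKM), Max (17.2), Bmi1 (12.4), Ccnd1 (12.1), Sirt1 (5.92) and Mxd1 (3.56), and Mycn, Mycl and Tert had no row.

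**Figure D4:**
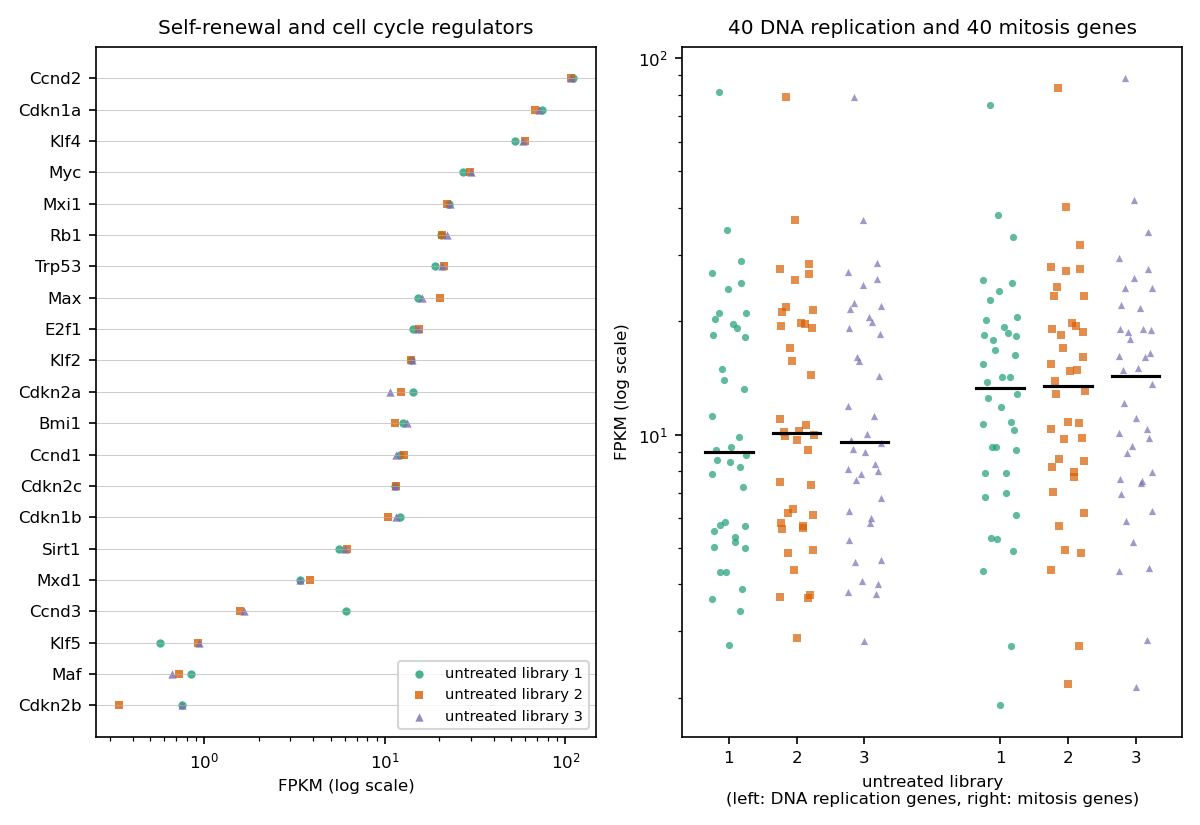
Left, FPKM on a log axis for 21 self-renewal or cell cycle regulators with a row, 1 point for each of 3 libraries. Right, the 40 replication and 40 mitosis genes by library on a log axis, with black bars at the medians. Ccnd2 leads at a mean of 109 FPKM, Maf lies below 1 in all libraries, and all 80 division genes lie above 1.

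Classical activation, the inflammatory state that interferon gamma and lipopolysaccharide induce, showed a split list. Of 26 genes 16 had a row, with a median of 5.32 FPKM. Ccl3, a chemokine for monocytes, was at 169, 179 and 176 FPKM and Il1a, an alarmin cytokine, at 61.9, 62.9 and 67.6. Il1b was at 9.37, 11.1 and 12.1 FPKM and Tnf at 6.19, 7.64 and 7.79. Il1a was 5.94 ± 0.569 times Il1b (SD, n = 3). The remaining members with a row were Fpr2 (43.1 FPKM), Marcks (31.9), Gbp2 (19.8), Irf5 (17.4), Ccl4 (3.44), Cd80 (1.74), Cxcl2 (1.65), Cd86 (1.61), Ccl2 (0.795), Acod1 (0.710), Cxcl10 (0.675) and Cxcl1 (0.108). Without a row were Nos2, which makes nitric oxide, the cytokines Il6, Il12a, Il12b and Il23a, the prostaglandin enzyme Ptgs2, and Cd40, Ccl5, Cxcl9 and Ido1.

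Alternative activation, the state that interleukin 4 induces, had 10 of 20 genes with a row. Chil3 and the mannose receptor Mrc1, at 330, 329 and 330 FPKM, are also genes of alveolar macrophages. The transcription factor Egr2 was at 31.1, 38.1 and 29.3 FPKM, the chemokine Ccl17 at 15.8 on average and the transglutaminase Tgm2 at 14.1. Arg1, the arginase that marks this state, was at 0.862, 0.772 and 0.808 FPKM. Irf4 (2.90 FPKM), Socs2 (2.36), Clec10a (1.63) and Ccl22 (0.307) were low, and Retnla, Mgl2, Cd163, Il10, Ccl24, Pdcd1lg2, Stab1, Cd209a, Il4i1 and Clec7a had no row.

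Antigen presentation differed by class. For MHC class I, B2m was at 1444, 1294 and 1378 FPKM and the heavy chain H2-D1 at 278, 270 and 260. For MHC class II, H2-Ab1 was listed at 0 in all 3 libraries, and H2-Aa, H2-Eb1 and their activator Ciita had no row. The loading factors H2-DMa and H2-DMb1 were nonetheless at means of 44.5 and 39.1 FPKM, and the invariant chain gene Cd74 at 13.3. The costimulatory genes Cd80 and Cd86 were below 2.1 FPKM in every library.

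Of 27 genes for sensing microbes 24 had a row. The endosomal receptors Tlr13 and Tlr8 were at means of 98.3 and 80.6 FPKM, and Tlr2, which senses bacterial lipoproteins, at 63.7. Tlr7 was at 59.9 FPKM in libraries 1 and 3 and at 28.5 in library 2. Tlr5, Tlr9 and Clec7a had no row. The inflammasome genes Casp1 and Pycard were at 72.0 and 33.8 FPKM and Nlrp3 at 9.87. Of 30 interferon-stimulated genes 26 had a row, led by Bst2 at 88.5 FPKM. Their median was 10.1 FPKM, or 13.95 with transcripts summed per gene.

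Lysosome genes were among the highest lists, with a median of 103 FPKM, or 179 with transcripts summed per gene. All 35 had a mean of 1 FPKM or more, as did 9835 of all 10653 genes. Lipa, the acid lipase that frees cholesterol, was at 609, 571 and 561 FPKM, and Lamp1 at 462, 447 and 435. Of 25 phagocytic and scavenger receptors 23 had a row, with a median of 99.2 FPKM, or 105.8 with transcripts summed per gene. Those with a row included the Fc receptors Fcgr3 (420), Fcgr4 (157) and Fcgr2b (135).

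Genes of lipid handling had 32 of 34 with a row and a median of 32.6 FPKM, or 46.5 with transcripts summed per gene. Fabp5, a fatty acid carrier, was at 531, 527 and 508 FPKM, Lpl, the lipoprotein lipase, at 355, 347 and 333, and Abcg1, a cholesterol exporter, at 256, 249 and 242. Apoe, the apolipoprotein that many tissue macrophages express strongly, was at 1.60, 1.02 and 0.825 FPKM. Abca1, which exports cholesterol to apolipoproteins, was at a mean of 11.9 FPKM. In iron handling the exporter Slc40a1 was low, at 2.56, 2.59 and 2.72 FPKM, beside the high ferritin genes, and the haem oxygenase Hmox1 was at 84.9 on average. All 20 glycolysis genes had a row, with a median of 22.9 FPKM, or 41.0 with transcripts summed per gene, and Aldoa at the top with 190.

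In the transcript table the main product of most genes was stable, but the assignment changed between libraries for some. Of 2615 genes with at least 2 transcript rows and a mean of 10 FPKM or more, 23.7% had no transcript with 60% or more of the sum. Among list genes this held for 46 of 168. Csf2ra, Csf2rb and Csf2rb2 each had 1 transcript row. Pparg-204 carried 56.8, 55.5 and 57.8% of the Pparg sum, Myc-206 52.3, 54.2 and 51.3% of the Myc sum and Igf1-202 44.5, 42.7 and 41.4% of the Igf1 sum. These shares were steady between libraries. Ptprc, the CD45 phosphatase, was divided between Ptprc-203 (52.0% on average) and Ptprc-204 (44.0%).

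Ldha, lactate dehydrogenase A, was the opposite case. Its gene level was 92.3, 88.9 and 86.2 FPKM. The transcript with the largest share was Ldha-210 in library 1 (77.0%), Ldha-214 in library 2 (78.8%) and Ldha-201 in library 3 (74.5%). The same transcripts were at 0.0406, 3.06 and 0% in another library. Hk3, Ctsa and Irf5 also changed their highest transcript between libraries. For Irf5, a transcription factor of inflammatory cytokines, Irf5-201 had 91.2, 2.63 and 81.8% of the sum and Irf5-205 had 0, 67.3 and 0%. For these genes the transcript level in 1 library is not a property of the group.

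The 3 libraries were close to each other over the table. Spearman's rho across genes, which are not independent replicates, was 0.991, 0.990 and 0.992 for the 3 pairs. Over 9835 genes with a mean of 1 FPKM or more the median coefficient of variation was 5.05% (quartiles 2.90 and 8.57%), and 564 genes, 5.73%, were above 20%. The median fell by level from 6.62% at means of 1 to 10 FPKM to 3.83% at 10 to 100 and 2.97% at 100 to 1000, and was 3.90% for the 18 genes above that. In the 4 exposed groups, each also of 3 libraries, the median was 5.42% with riebeckite asbestos and 5.88% with riebeckite fragments. It was 5.76% with tremolite asbestos and 4.72% with tremolite fragments, so the untreated libraries were within the range of the others.

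A small set of genes stood at clearly different levels in 1 library. Of 6661 genes with a mean of 5 FPKM or more, 87 (1.31%) had a highest library at least 2 times the lowest, and in 73 of these the other 2 libraries were within 1.2 times of each other. The library apart was library 1 in 33 genes, library 2 in 15 and library 3 in 25.

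Tlr4, the receptor for lipopolysaccharide (chromosome 4, 66827584 to 66930284), was at 49.5 FPKM in library 1 and at 10.1 and 9.09 in the others. Plagl2, a zinc finger transcription factor, was at 12.8 FPKM in library 1 and at 2.45 and 2.04 in the others, and Nek7, a kinase of the NLRP3 inflammasome, at 19.97, 4.57 and 4.53. Tmem127 was at 27.1 and 26.2 FPKM in libraries 1 and 2 and at 2.10 in library 3. Sar1a, a GTPase of vesicle transport, was at 16.01, 16.1 and 42.4 FPKM. These jumps are far wider than the median spread of 5.05%.

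Set beside the 12 exposed libraries, several of these genes lay at 2 separate levels. For Tlr4, 9 of the 12 were at 5.199 to 7.29 FPKM and 3 at 31.8 to 35.6. For Nek7, 6 were at 4.38 to 5.26 FPKM and 6 at 16.4 to 19.3. For Tmem127 all 12 were at 25.9 to 28.6 FPKM. The dividing level was the midpoint, on the log scale, of the untreated range and was chosen after the values had been seen. A transcript at 0 in 1 library and at 1 FPKM or more in another occurred in 20.7% of the 87 wide genes and in 7.17% of the other genes. Whether the way transcripts were assembled and quantified has a part in these jumps was not tested. The level of Tlr4 in untreated cells is therefore given here by library, without a mean.

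**Figure D5:**
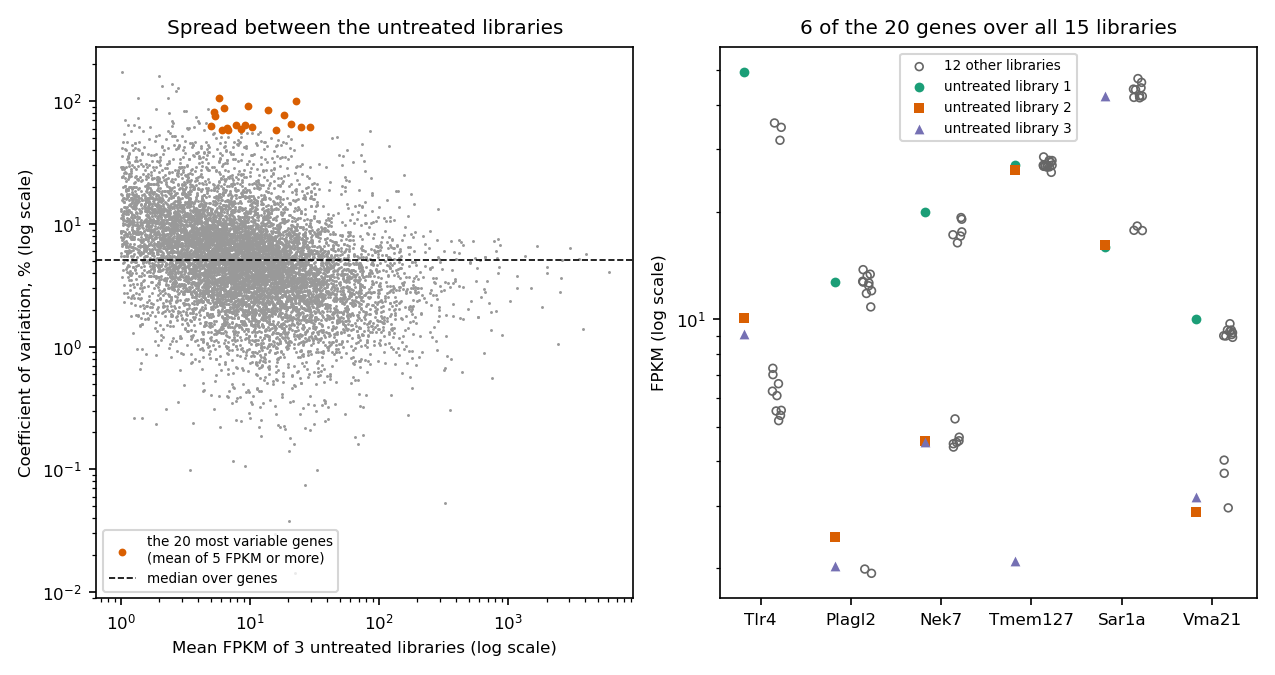
Left, coefficient of variation against mean FPKM, both on log axes, for genes with a mean of 1 FPKM or more, with the 20 most variable genes at 5 FPKM or more in orange and the median of 5.05% as a dashed line. Right, FPKM on a log axis of 6 of these 20 genes, chosen after the values had been seen, in 3 untreated (filled) and 12 exposed (open) libraries. Tlr4 lies at 49.5 FPKM in library 1 and at 10.1 and 9.09 in the others of its group.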

How the data were processed

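RNA of MPI cells was sequenced in 15 libraries, and the 3 untreated ones were used here, grouped by their labels. Oligo(dT) selection and dUTP in the second strand were used, per the labels' protocols. The tools HISAT2, StringTie and cutadapt and the build GRCm38 are named per the submitters' processing notes, without versions. Gene and transcript tables were deposited by the authors under headers that name no unit, and the deposited values point to FPKM. FPKM are relative within a library, so abundant messages lower the others.

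Deposited FPKM were used as given, with no filter beyond those stated and no test, since there is 1 group. No counts were available to this work, so depth is unknown. Means, SDs, coefficients of variation, ranks, shares, list counts, Spearman's rho and transcript shares were computed in Python 3.11.15 with pandas 2.3.3, numpy 2.4.6 and scipy 1.17.1, and plots with matplotlib 3.10.9. The spread calculation was tested on simulated data. Log values used a pseudocount of 1.

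Named genes are the 30 highest, up to 6 leading members and the first 6 of each list, all members with a row of the GM-CSF receptor, colony factor receptor, self-renewal and activation lists, the 20 most variable at 5 FPKM or more, and list genes with divided transcripts. Only some of these are printed, and some genes that the rule takes are left out of the text and plots. The members and lists were chosen with earlier results of these data known. Other genes named were chosen after their values were seen. In lists, Itgam is the row ENSMUSG00000030786.18. Promoters came from RefSeq by symbol, 1 a gene, and 8391 genes of the table had one. Of the motifs, GAGGAAGT was searched first, and AGGAAG was added after the printed windows had been read.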

Additional observations from a re-analysis of the deposited data

How the results depend on the processing

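No paired analysis was possible because only 1 group was described and no test was made. Leaving out 1 library at a time gave a median coefficient of variation between 3.68 and 4.57% and a median SD of log2 values between 0.0461 and 0.0571. Both were lower than with all 3. The median of an SD falls by itself when fewer libraries enter it, so this shows no smaller spread. The share of genes with divided transcripts was between 23.4 and 23.9%. At 5 FPKM in place of 1, 6418 genes passed. The 30 highest genes took 16.8% of the sum with nuclear genes only and 16.9% with transcripts summed per gene. Summed transcripts gave 6.501% for mitochondrial and 8.06% for ribosomal protein genes, and the latter took 6.76% of the nuclear sum. Summed transcripts also moved list medians, upwards to 94.9 FPKM for macrophage identity, 159 for alveolar macrophage, 27.1 for the GM-CSF receptor list, 15.8 for self-renewal, 15.5 for DNA replication and 19.1 for mitosis. Other medians rose too, to 25.3 for iron handling (12.1 by gene), 41.0 for glycolysis and 179 for lysosome, while that of Kupffer cell genes went from 9.57 to 6.30 and that of cytokine receptors from 13.3 to 11.5. Gene values are not the sums of their transcripts, which had a median ratio of 1.24 to the gene value, and the cause was not tested. The median coefficient of variation was 3.76% at means of 10 FPKM or more, the median SD was 0.0717 with a pseudocount of 0.1, and 15.3% of genes with a mean of 50 FPKM or more had divided transcripts. For the 29 lists other than classical activation and the 6 that head this account of summed transcripts, 146 of 174 alternatives moved the median by less than 1 SD. Most of these alternatives left out 1 library or rescaled the libraries by nearly equal factors, which can hardly move a median that far. Their number therefore says little about how steady the medians are. The larger moves came from summed transcripts, in all of these lists but those of microglia and progenitor genes. The only other larger move was that of pattern recognition genes without library 1, from 16.5 to 13.2 FPKM. These medians therefore depend on how transcripts are added up. TMM factors lay between 0.993 and 1.00, so rescaling hardly moved the libraries. The unknown depth limits statements on genes near 1 FPKM.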

Other observations

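There were 9 symbols on 2 rows of the gene table, with gene models that mostly overlap. Itgam, which encodes the integrin chain CD11b, was listed at 4.44, 14.7 and 17.2 FPKM on 1 row (chromosome 7, 128062640 to 128118491) and at 30.2, 21.6 and 26.9 FPKM on the other (128062683 to 128128160). Added up, the rows gave 34.6, 36.3 and 44.1 FPKM, and the coefficient of variation was 13.2% in place of 55.9% for the first row. Lilrb4a, an inhibitory receptor of myeloid cells, had means of 99.1 and 268 FPKM on its 2 rows, and 367 ± 3.56 when added (SD, n = 3). For Pnp, a purine salvage enzyme, 1 row stood at 0.803, 0.637 and 6.88 FPKM and the other at 25.8, 26.04 and 25.03.

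The only gene with a row on chromosome Y was Erdr1, at 8.43, 8.65 and 10.1 FPKM, a gene of the region that X and Y share, and the labels give the cells as female.

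Stress genes can reflect handling of cells. Hspa8, a chaperone, was at 244, 299.9 and 316 FPKM, and the immediate early gene Fos at 3.34, 3.71 and 5.00. Of 20 stress genes with a mean of 1 FPKM or more, library 1 was the lowest in 11 and the highest in 1, against 40.3 and 31.1% of all genes at that level. Its part in the library order of the other lists was not tested.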
